A study of Rattus norvegicus with 8 samples.

Results

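The 10 neuropeptide genes *Npy*, *Sst*, *Penk*, *Pdyn*, *Cck*, *Tac1*, *Gal*, *Vip*, *Crh* and *Nts*, each with a known role in hippocampal neurons, were followed in the dentate gyrus (DG) of rats after status epilepticus (SE). Members were taken by symbol, as the non-control array spots whose gene name equals 1 of these symbols, and make up 10 of the 35199 gene names on the array. They held 66 of the 43379 non-control spots, and all 10 were measured, meaning that at least 1 spot of the gene had a foreground of at least 2 times its background in all 8 rats.

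The rats were ovariectomized (OVX) adult Sprague-Dawley females, so both groups lacked ovaries, and both received kainic acid, a glutamate receptor agonist that elicits SE. The 4 COS rats were injected with oil and the 4 CES rats with estradiol (E2), given as estradiol benzoate, with 2 µg a day by the study's methods. The design compares the groups to ask what E2 replacement changes in the DG of rats with SE. Per the labels there were 4 injections at intervals of 24 h, 2 before and 2 after SE, kainic acid was given at 16 mg/kg, and SE was ended after 5 h with pentobarbital. The study's methods instead place all injections before SE and give a lower dose of kainic acid, diazepam as the drug that ended SE and differing times of tissue collection, and nothing in the files decides between these accounts. The short sample descriptions call the COS rats seizured and leave that word out for the CES rats, while the treatment text common to all samples gives SE to both groups. Rats without SE were not analysed here, so every difference below is between 2 groups that the treatment text gives SE.

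Each rat was 1 channel of a 2-color array. Replicates 1 and 3 of each group were labeled with Cy3 and replicates 2 and 4 with Cy5, and each of the 4 arrays held 2 rats of the same group. All 4 arrays were on 1 slide. A level is the log2 of the background-subtracted signal relative to the median valid spot of the same channel, so levels of different genes depend on their probes and are not compared. Valid spots made up 74.6% to 88.9% of the non-control spots in COS and 70.7% to 81.5% in CES. The number of arrays limits the precision, and the rats of a group share arrays in pairs. CES replicate 2 stood apart from the other CES rats, with a *Fos* level of 3.73 against −0.22 to 0.25, and levels between those of the other CES rats and the COS rats for 6 of the 8 neuropeptide genes called lower. Whether this channel matches its label was not tested, so the differences are also given without it.

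Neuropeptides are cut from larger precursor proteins in dense-core granules and are released mainly when neurons fire at high rates. They act on G protein-coupled receptors and tune the release of glutamate and GABA. In the DG they are made by several kinds of GABAergic interneuron of the hilus and by the granule cells, and their precursor mRNAs are known to change with seizures. Each array value is a DG average, so fewer cells of a type and less mRNA per cell cannot be told apart.

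A sequence that several of the members hold near their start is shown first. RefSeq promoters on the GRCr8 build, from 250 bases before to 50 bases after the gene's start, were at hand for 7 of the 10 members, and *Penk*, *Cck* and *Crh* were not in the table. The core of the cAMP response element, TGACG on either strand, is the sequence that CREB and related factors are known to bind. It occurred in 5 of the 7 windows, those of *Sst*, *Tac1*, *Gal*, *Vip* and *Nts*, and in 21.2% of all 33469 windows of this length. The 60 bases around the first match in each window are printed below in the direction of the gene, with TGACG or its reverse complement in capitals.
Sst: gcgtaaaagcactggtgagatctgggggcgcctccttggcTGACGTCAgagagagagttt
Tac1: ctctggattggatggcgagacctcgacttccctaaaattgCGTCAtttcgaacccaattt
Gal: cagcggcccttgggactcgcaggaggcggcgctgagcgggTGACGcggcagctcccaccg
Vip: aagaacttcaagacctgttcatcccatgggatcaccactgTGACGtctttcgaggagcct
Nts: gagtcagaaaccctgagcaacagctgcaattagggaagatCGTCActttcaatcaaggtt

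These stretches lie at chr11:90461508-90461567 on the + strand for *Sst*, chr4:36645337-36645396 on the + strand for *Tac1*, chr1:210084616-210084675 on the − strand for *Gal*, chr1:44470343-44470402 on the + strand for *Vip* and chr7:39461040-39461099 on the − strand for *Nts*. In *Sst* the core occurs on both strands at once, which makes the whole palindrome TGACGTCA, a sequence that 1.83% of all windows hold on either strand and that 1 of the 7 members holds. The AP-1 sequence TGACTCA, read on both strands, was in 1 of the 7 windows, that of *Nts*, and in 4.63% of all windows. TATAAA, read on the gene's strand only, was in the windows of 3 members, *Pdyn*, *Gal* and *Vip*, and in 8.8% of all windows. The estrogen response element GGTCANNNTGACC was in 0 of the 7 windows and in 0.0269% of all. A match or its absence describes these letters in this window and does not show that a factor binds. *Npy* and *Pdyn* held no TGACG in their windows.

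Most of the neuropeptide genes were lower in the CES than in the COS rats. In a limma model with a dye term and a block for the array, 8 of 10 were called lower at an adjusted p under 0.05, where 28.3% of all 21332 genes tested were called lower and 34.1% in either direction. After loess 7 members were called lower, beside 10.4% of all genes lower and 15.6% higher, and without COS replicate 3 the shares of all genes were 4.28% and 1.2%. The 8 members called lower were *Tac1*, *Gal*, *Penk*, *Crh*, *Pdyn*, *Npy*, *Sst* and *Vip*. The groups did not overlap for the same 8, with CES below COS, against 19.8% of all genes, and 0 members had CES above COS, against 1.61%. Limma called 0 members higher, also 0 at an unadjusted p under 0.05, where 5.8% of all genes were called higher, and the methods' t-test called 0 higher as well. That t-test, which allows unequal variances, called 0 of all 21332 genes in either direction after adjustment, and so 0 members. The 8 genes had adjusted p values of 0.0766 to 0.140 by that t-test. At an unadjusted p under 0.05 it gave 8 members lower, beside 5331 of all 21332 genes. The adjustment over all genes is not the one in the study's methods, which correct for redundant spots of a gene and add a fold cut-off for each gene. Without COS replicate 3, limma called 3 of the 8 lower. The remaining 2 members, *Cck* and *Nts*, were not called. The median difference over the 10 genes, CES minus COS on the log2 scale, was −1.87, and the median over all genes was −0.25. Because that general shift moves with the scaling and was 0.0385 after loess, the differences of some members and the list medians are also given relative to it. Relative to it the members' median was −1.61. The block had almost no weight, since the correlation within an array over all genes was −0.0064, so the p values treat the 2 rats of an array as nearly independent.

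**Figure D1:**
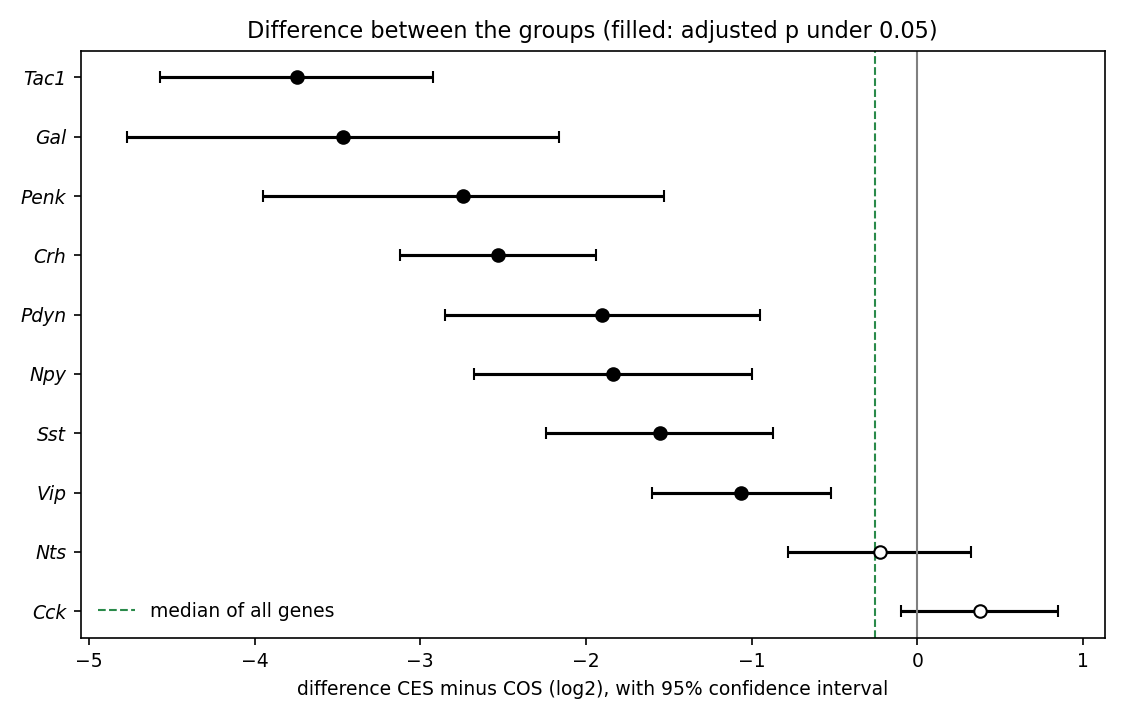
Difference in level, CES minus COS on the log2 scale, for the 10 neuropeptide genes, with points for the limma estimates, bars for 95% confidence intervals and a dashed line for the median of all genes at −0.25. The 8 filled points, from *Tac1* at −3.75 to *Vip* at −1.06, passed the test, and the open points are *Nts*, whose sign differs between scalings, and *Cck*.

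Among the peptides of hilar interneurons, *Npy* and *Sst* were both lower in CES. *Npy* encodes neuropeptide Y, which acts on presynaptic Y2 receptors to lower glutamate release and is known to appear in granule cells after seizures. Its level was 7.28, 7.78, 7.60 and 7.65 in COS replicates 1 to 4, and 4.90, 7.20, 5.59 and 5.27 in CES replicates 1 to 4. CES replicate 2 came to within 0.08 of the lowest COS rat, and the other CES rats were at least 1.69 below it. The difference was −1.84 (SE 0.38, 3.57-fold, adjusted p = 0.00730 by limma), and −1.58 relative to all genes. With 2 rats against 2, it was −2.19 in the Cy3 rats and −1.48 in the Cy5 rats. The adjusted p of *Npy* ranged from 3.2e-05 to 0.140 over 24 alternatives, and was 0.0507 after loess, 0.0540 with normexp background correction and 0.0727 without COS replicate 3.

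*Sst* encodes somatostatin, the marker peptide of hilar interneurons that project to the outer molecular layer, where perforant path fibers reach granule cell dendrites. Its level was 7.12, 8.15, 7.39 and 7.39 in the COS rats and 5.35, 6.89, 6.05 and 5.54 in the CES rats. Every CES rat was below every COS rat, with 0.23 between the nearest of them. The difference was −1.56 (SE 0.31, 2.94-fold, adjusted p = 0.00650 by limma), and it was −1.55 in the Cy3 rats and −1.56 in the Cy5 rats. The call was lost with normexp, at an adjusted p of 0.0705, and without COS replicate 3, at 0.0665, within a range of 0.00046 to 0.0928 over the alternatives. *Sst* is the member whose promoter window above holds the full TGACGTCA.

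On the rn4 build of the array files, the *Npy* probe spans 78045125 to 78045184 of chromosome 4 and the *Sst* probe 79126027 to 79126086 of chromosome 11. Each was printed on 10 spots. Over the 6 probes with 10 spots the SD between spots of a rat was 0.082 to 0.385 on the log2 scale, while the SD between CES rats was 1.02 for *Npy* and 0.69 for *Sst*.

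Both opioid precursors were lower in CES. *Penk* encodes proenkephalin, the source of the enkephalins that act on delta and mu opioid receptors. Its level was 6.62, 6.42, 6.39 and 5.74 in the COS rats and 2.56, 5.56, 3.1 and 2.98 in the CES rats. CES replicate 2 lay 2.68 above the mean of the other CES rats and 0.18 below the lowest COS rat. The difference was −2.74 (SE 0.54, 6.69-fold, adjusted p = 0.00654 by limma), with −3.68 in the Cy3 rats and −1.81 in the Cy5 rats. Without COS replicate 3 the adjusted p was 0.0678, within a range of 6.9e-06 to 0.117.

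*Penk* was measured by 1 of its 2 probes, at positions 17509637 to 17509696 of chromosome 5. The second probe, at 17514076 to 17514135, was dim, with a raw signal of 208 to 326 in COS and 89.1 to 116 in CES. It was not valid in CES replicates 3 and 4 and was well above background in COS replicates 2 and 4 alone, so it gave no tested value.

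*Pdyn* encodes prodynorphin, made by granule cells and stored in their mossy fibers, whose dynorphins act on kappa receptors. Its level was 5.30, 5.69, 4.08 and 3.76 in the COS rats and 2.11, 2.86, 2.96 and 3.28 in the CES rats. The groups did not overlap, but the COS rats fell into pairs by array, and the mean of the array with replicates 1 and 2 was 1.57 above that of the array with replicates 3 and 4. The difference between the groups was −1.90 (SE 0.43, 3.74-fold, adjusted p = 0.00994 by limma), and the lower COS array was 0.80 above the higher CES array. The p of *Pdyn* does not carry that gap between arrays as a shared error of array mates. *Pdyn* rested on 1 spot, at 117291061 to 117291120 of chromosome 3, and its adjusted p was 0.0552 without COS replicate 3, within a range of 0.00351 to 0.107.

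The largest differences among the members were those of *Tac1* and *Gal*. *Tac1* encodes the precursor of substance P and neurokinin A, excitatory tachykinins. Its level was 5.76, 6.0, 6.09 and 6.31 in the COS rats and 1.72, 3.72, 2.00 and 1.73 in the CES rats. The other CES rats lay close together and CES replicate 2 stood above them, 2.04 below the lowest COS rat. The difference was −3.75 (SE 0.37, 13.4-fold, adjusted p = 0.00294 by limma), with −4.06 in the Cy3 rats and −3.43 in the Cy5 rats. The 10 spots of *Tac1* share a probe at 32657311 to 32657369 of chromosome 4.

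*Gal* encodes galanin, a peptide that inhibits glutamate release and is best known in the hippocampus from noradrenergic afferents. Its level was 5.45, 5.23, 5.30 and 4.61 in the COS rats and 1.45, 3.76, 0.87 and 0.64 in the CES rats. The spread was wide in CES, where replicate 2 lay 2.78 above the mean of the other rats and 0.85 below the lowest COS rat. The difference was −3.47 (SE 0.58, 11.1-fold, adjusted p = 0.00453 by limma), with −4.21 in the Cy3 rats and −2.72 in the Cy5 rats. It was −2.83 without CES replicate 4 and −2.87 after loess. The *Gal* probe lies at 205936430 to 205936489 of chromosome 1 and was printed on 10 spots.

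*Crh*, the precursor of corticotropin-releasing hormone, which hippocampal interneurons release in stress and which excites hippocampal neurons, was also lower. Its level was 2.53, 3.27, 2.86 and 2.53 in the COS rats and −0.28, 1.08, 0.16 and 0.10 in the CES rats. The nearest rats of the groups were 1.45 apart. The difference was −2.53 (SE 0.26, 5.78-fold, adjusted p = 0.00294 by limma), with −2.75 in the Cy3 rats and −2.31 in the Cy5 rats, and it was −1.74 after loess. Its 10 spots carry a probe at 104764253 to 104764312 of chromosome 2. *Crh*, *Tac1* and *Gal* were the members that passed the test without COS replicate 3 as well.

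*Vip* had the smallest difference of the 8. It encodes vasoactive intestinal peptide, the marker of interneurons that contact other interneurons. Its level was 4.74, 4.75, 5.40 and 4.61 in the COS rats and 3.33, 4.00, 4.21 and 3.70 in the CES rats. The difference was −1.06 (SE 0.24, 2.09-fold, adjusted p = 0.0106 by limma), and −0.81 relative to all genes. It rested on 1 spot, at 36369392 to 36369451 of chromosome 1. The call was lost in 7 of 24 alternatives, with adjusted p values of 0.0540 to 0.268 and, over all 24, of 0.00193 to 0.268, while the sign stayed the same in all 24.

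**Figure D2:**
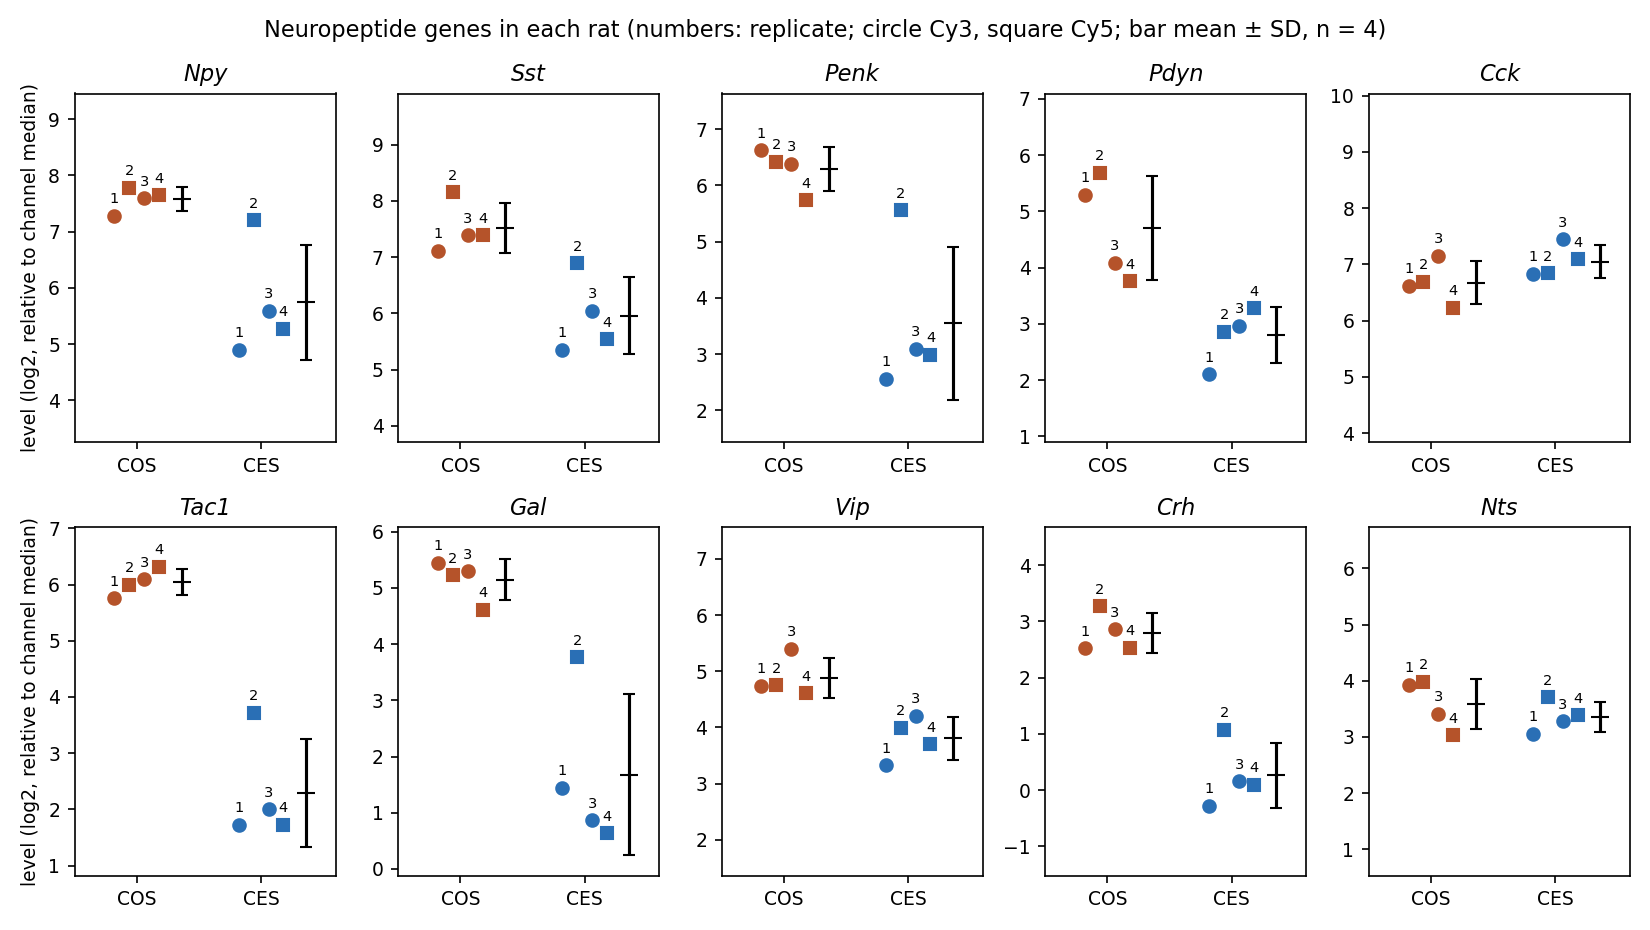
Level of each of the 10 genes in each rat, on the log2 scale relative to the channel median, with the replicate number above each point, circles for Cy3, squares for Cy5, and bars for the mean ± SD of 4 rats. All panels span the same number of log2 units, and CES replicate 2 stands apart from the other CES rats in *Npy*, *Penk*, *Tac1* and *Gal*.

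*Cck* and *Nts* did not pass the test. *Cck* encodes cholecystokinin, found in a class of basket cell and in other hippocampal neurons. Its level was 6.62, 6.69, 7.16 and 6.23 in the COS rats and 6.83, 6.84, 7.45 and 7.09 in the CES rats, so the groups overlapped. The difference was 0.38 (SE 0.21, 95% interval −0.098 to 0.849, adjusted p = 0.196 by limma), and 0.63 relative to all genes. *Cck* was called higher in CES in 5 of 24 alternatives, which were loess (0.71, adjusted p = 0.0142), quantile normalization (0.71, 0.0245), scaling by the spots that were valid in every rat (0.78, 0.0273), spots well above background (0.83, 0.0202) and the deposited log2 table (0.77, 0.0256). The adjusted p of *Cck* reached 0.534 in the others. Its 10 spots lie at 126492829 to 126492888 of chromosome 8.

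*Nts* encodes neurotensin, which acts on the receptors *Ntsr1* and *Ntsr2* and on the sorting protein sortilin. Its level was 3.93, 3.98, 3.41 and 3.03 in the COS rats and 3.06, 3.71, 3.28 and 3.39 in the CES rats. The mean of the COS array with replicates 1 and 2 was 0.73 above that of the other COS array, which is more than the difference between the groups. That difference was −0.23 (SE 0.25, 95% interval −0.78 to 0.32, adjusted p = 0.501 by limma), or 0.03 relative to all genes. Its 2 probes gave opposite signs, with −0.37 at 40474799 to 40474858 of chromosome 7 and 0.02 at 40474898 to 40474957. The sign of *Nts* turned in 5 of 24 alternatives, up to 0.22 with spots well above background. Its promoter window is 1 of the 5 that hold TGACG, and the other 4 belong to members called lower. *Npy* and *Pdyn*, whose windows hold no TGACG, were called lower too. A link between this sequence and the differences was not tested.

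**Figure D3:**
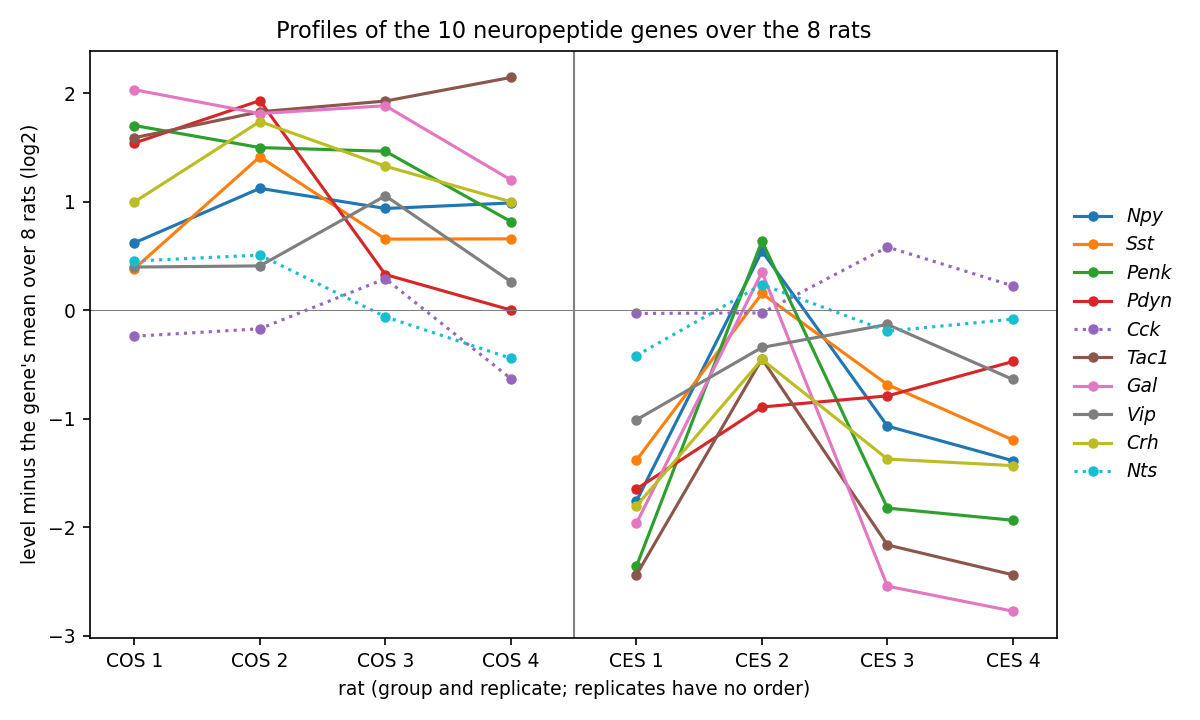
Level of each gene minus its own mean over the 8 rats, on the log2 scale, by rat. Lines join the rats of a group to make each gene traceable and carry no order, solid for the 8 genes called lower in CES and dotted for *Cck* and *Nts*. Of the solid lines, 6 reach their highest CES value in replicate 2.

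CES replicate 2 had the highest level of the CES rats for 7 of the 10 members and for 6 of the 8 called lower. The exceptions were *Pdyn*, *Vip* and *Cck*. Over all genes tested this rat was the highest CES rat for 16.4%, and among the genes called lower for 45.8%. Without it the members called lower were again 8, beside 32.7% of all genes called lower and 8.7% higher. Without this rat the differences were −2.29 for *Npy*, −1.82 for *Sst*, −3.44 for *Penk*, −4.21 for *Tac1*, −4.24 for *Gal*, −2.77 for *Crh* and −1.16 for *Vip*, all larger than with it. The difference of *Pdyn* was −1.86, which was smaller. The seizure course of single rats is not given in the labels.

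For each member called lower, the named genes nearest in profile were listed. By the root-mean-square difference of the centred log2 profiles over the 8 rats, the gene nearest to *Npy* was *Vgf*, a granule protein (0.167), followed by *Bgn* (0.210) and *Nptx2*, a pentraxin secreted at synapses (0.229). *Sst* was nearest to *Scg2*, secretogranin II (0.210), then to *Slc2a1* and *Slc3a2*. *Crh* was nearest to *Crem* (0.208), a cAMP-responsive transcription factor gene, then to *Nfil3* and *Adamts9*. These are descriptions of 8 values each, without a test.

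*Gal* was nearest to *Ch25h* (0.167), then to PVR and *Ripk3*. The nearest to *Penk* were *Slc1a5* (0.252), *Fam129b* and *Ctsz*, and those to *Tac1* were *Map3k6* (0.333), *Gadd45a* and *Fstl3*. *Vip* was nearest to *Angel2* (0.0905), *Arl4a* and *Pf4*, and *Pdyn*, with its COS arrays apart, had no gene nearer than *Ufl1* (0.405), followed by *Emp2* and *Steap1*. Among the members themselves, *Npy* and *Sst* were the closest pair, at 0.318.

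The other neuropeptide precursors were lower in part. Of 30 listed genes 25 were measured, of which 11 were called lower and 2 higher, beside 28.3% and 5.8% of all genes. The median difference was −0.60, and −0.35 relative to all genes. *Trh*, the precursor of thyrotropin-releasing hormone, differed by −3.51 (adjusted p = 0.0386), *Calcb* by −2.63 (0.00518), *Avp*, the vasopressin precursor, by −2.37 (0.0359) and *Cartpt* by −2.00 (0.00310). *Grp*, gastrin-releasing peptide, was higher by 1.35 (0.00434) and *Nppc* by 0.92 (0.0372). The groups overlapped for *Trh*, since CES replicate 2, at a level of 4.84, was above the lowest COS rat at 4.61, with the other CES rats at −1.0 to 3.61. They overlapped for *Avp* too, with CES replicate 2 at 3.34 and COS replicates 2 and 4 at 2.20 and 2.68, and for *Nppc*. The precursors called lower were 6 after loess, 14 without CES replicate 2, 3 without COS replicate 3, 2 with normexp and 0 by the methods' t-test. The shares of all genes called lower were 10.4%, 32.7%, 4.28%, 2.16% and 0%.

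Of the 26 receptors and binding proteins of the 10 peptides, 21 were measured, with 6 called lower and 3 higher. The median difference was −0.07, and 0.19 relative to all genes. The share called lower was close to the 28.3% of all genes. *Crhbp*, whose product binds and holds Crh, differed by −2.10 (adjusted p = 0.00518). *Tacr1*, the substance P receptor, differed by −1.29 (0.0102), and *Npy2r*, the presynaptic Y2 receptor, by −1.11 (0.0116). *Npy1r*, the Y1 receptor of neuropeptide Y, was higher by 0.96 (0.0207), with overlapping groups. After loess 6 were called higher and 1 lower, with normexp 0 and 1, and without COS replicate 3 or by the methods' t-test 0 in either direction. *Galr1* and *Ntsr1* were not valid in every rat and gave no value.

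Of the genes for peptide processing and dense-core granules, 15 of 17 were measured, and 3 were called lower and 2 higher. The median difference was −0.07, and 0.18 relative to all genes. The share called lower was below the 28.3% of all genes. *Scg2* differed by −1.83 (adjusted p = 0.00554), *Vgf* by −1.80 (0.00987) and *Pcsk1*, a convertase that cuts peptide precursors, by −1.44 (0.0124). *Scg5*, a chaperone of the related convertase *Pcsk2*, was higher by 0.59 (0.0449). The groups overlapped for *Vgf*, with CES replicate 2 at 7.98 and the lowest COS rat at 7.81, and for *Pcsk1* and *Scg5*. After loess 5 were called higher and 1 lower, with normexp 0 and 1, and without COS replicate 3 or by the methods' t-test 0 in either direction.

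Genes known to be induced by neuronal firing were also lower in CES. Of 11 listed, 9 were measured and 8 called lower, beside 28.3% of all genes. The median difference was −1.48, and −1.23 relative to all genes. *Inhba* differed by −4.32 (adjusted p = 0.00434), *Fos* by −4.25 (0.00499), *Junb* by −2.39 (0.00375) and *Nptx2* by −1.94 (0.00819). Limma called 0 of them higher, also 0 at an unadjusted p under 0.05. *Fos* was 3.73 in CES replicate 2 and −0.22 to 0.25 in the other CES rats, and this rat had the highest CES level for 6 of the 9. It was the highest CES rat for 16.4% of all genes tested and for 45.8% of those called lower. The activity genes called lower were 5 after loess, 3 without COS replicate 3, 3 with normexp and 0 by the methods' t-test. The shares of all genes called lower were 10.4%, 4.28%, 2.16% and 0%. The part of the activity genes in the differences of the neuropeptide genes was not tested.

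**Figure D4:**
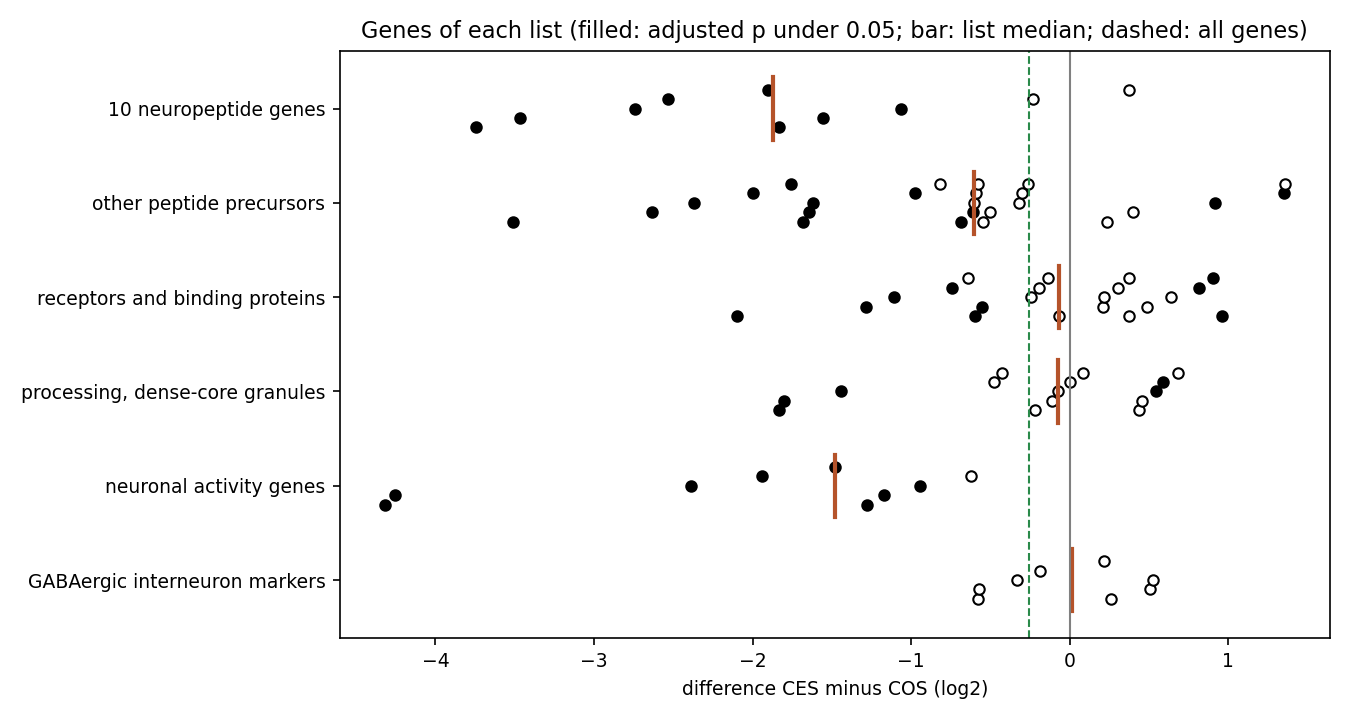
Difference in level, CES minus COS on the log2 scale, for each measured gene of the 10 neuropeptide genes and of 5 other lists, filled where the adjusted p was under 0.05, with a bar for the median of the list and a dashed line for the median of all genes. The medians were −1.87 for the members, −1.48 for the activity genes, −0.60 for the other precursors and 0.01 for the interneuron markers.

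Markers of the interneurons that make several of the peptides were not called in either direction under the scaling used here. The 8 measured of 9 GABAergic interneuron markers had a median difference of 0.01, and 0.27 relative to all genes. Limma called 0 of them in either direction, beside 28.3% of all genes lower and 5.8% higher. At an unadjusted p under 0.05, 2 were lower and 2 higher, beside 7785 and 1848 of all 21332 genes. The marker lists were not counted under the alternatives. With scaling by the spots that were valid in every rat, the median of all genes was 0.15 in place of −0.25. *Gad1* and *Gad2*, the enzymes that make GABA, differed by −0.57 (adjusted p = 0.0603) and −0.58 (0.0956), and *Calb2* and *Pvalb*, which encode calcium-binding proteins, by 0.53 (0.0939) and 0.51 (0.0724). The summed level of the markers was 46.0 to 78.2 in COS and 47.9 to 63.0 in CES, on the linear scale relative to the channel median. *Lhx6* was valid in 4 rats and well above background in 0. Their part in the differences of *Npy*, *Sst* and *Vip* was not tested.

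Of the granule neuron markers 6 of 7 were measured, 3 were called lower and 1 higher. Beside this and the other marker counts of the paragraph, 28.3% of all genes were called lower and 5.8% higher. Those shares were 8.05% and 15.7% with scaling by the spots that were valid in every rat, under which the markers were not counted. *Dsp* differed by −1.24 (adjusted p = 0.00701), *C1ql2* by −1.23 (0.0104), *Neurod1* by 1.16 (0.00516) and the dim *Tdo2* by −0.57 (0.0426), and the summed levels overlapped at 23.2 to 45.8 in COS and 25.8 to 45.5 in CES. *Prox1*, the defining granule cell factor, was valid in 6 rats and well above background in 0, so its probe does not show the tissue. Pyramidal neuron markers, 4 of 5 called higher, summed to 10.8 to 16.6 in COS and 14.4 to 33.1 in CES, and *Pou3f1* differed by 2.23 (0.00342). Microglial markers, 3 of 5 called lower, summed to 30.0 to 46.3 and 16.6 to 24.2, with *Cd68* at −2.19 (0.00489). Of the astrocyte markers 2 of 5 were called higher, *Gja1* at 1.27 (0.0341), with overlapping groups, and *Aldh1l1* at 1.23 (0.00652). The other astrocyte markers were not called, *Gfap* at −1.19 (0.062), *Slc1a3* at −0.07 (0.775) and *Aqp4* at 0.04 (0.887). At an unadjusted p under 0.05, 2 astrocyte markers were higher and 1, *Gfap*, was lower. The astrocyte sums were 168.9 to 190.2 in COS and 151 to 229 in CES. Of the endothelial markers 2 of 3 measured were called lower, *Flt1* at −1.04 (0.00961) and *Tek* at −0.81 (0.0355), with sums of 16.1 to 21.0 and 11.9 to 16.9. Choroid plexus markers varied between rats, from 13.1 to 616 in COS and from 16.2 to 194 in CES, with 0 of 5 called and 0 at an unadjusted p under 0.05. Of 2 hilar mossy cell markers 1 was measured, *Drd2*, which was not called at −1.40 (0.128) and was well above background in 2 rats of each group. Of the oligodendrocyte markers 0 of 5 were called. The part of the pyramidal, microglial, astrocytic, endothelial, choroid plexus, mossy and oligodendroglial cells in the members' differences was not tested.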

How the data were processed

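Total RNA of the DG of 8 rats was hybridized to 4 Agilent Rat 2-color arrays, and the files were made with Agilent Feature Extraction 10.7.3.1 per the submitters' processing notes. The deposited scanner files give foreground and local background intensity for each spot, with flags for signal well above background, saturation and outliers, and a table by the authors of log2 values of valid spots. The authors' steps were repeated. The mean signal minus the background median of each valid spot (foreground at least 2 times background) was scaled to the same-label median, averaged per gene over spots valid in each of the 8 rats, and log2-transformed. The authors' iterative renormalization across conditions was not repeated. Coordinates are those of the array files (rn4), and promoters are from RefSeq (GRCr8).

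CES was compared with COS in limma 3.58.1 (R 4.3.3), two-sided, with the dye as a term, the array as a random block and Benjamini-Hochberg adjustment over all 21332 genes, and calls at 0.05. Each array held rats of 1 group, so no comparison within an array was possible. The limma fit was run on simulated gene levels in which 200 genes were changed. That simulation held no dye or array effect and began from gene levels. It therefore does not check those model terms, the spot filter or the scaling. Members and gene lists were chosen with earlier results of these data known, and list counts are descriptions. Named genes were the 10 members, up to 4 called genes of each list with the largest differences, markers at or near background, and the 3 nearest profiles of each called member. *Grp*, *Nppc*, *Gad1*, *Gad2*, *Calb2*, *Pvalb*, *Gfap*, *Slc1a3* and *Aqp4* lie outside that rule and were chosen after their values were seen. In the pairing check, same-numbered rats, which share the dye, had correlated deviations (r of 0.317, 0.209, 0.295 and 0.335), and with the dye removed r was −0.173, −0.28, −0.199 and 0.0801, so the numbers were not taken as pairs. Over 24 alternatives, the background correction, scaling, spot filters, model terms, test, gene names and single rats were varied.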

Additional observations from a re-analysis of the deposited data

Results flagged for a closer look

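Over the 20 groups of 4 rats, 10 members in COS and in CES, 1 held a rat that stood apart from the rest by Dixon's ratio of gap to range, and chance marks about 1 in 20 such groups. For *Tac1*, CES replicate 2 had a level of 3.72 on the log2 scale, while the nearest CES rat was at 2.00 and the lowest at 1.72, so the gap took 0.861 of the range, above the 95% critical value for 4 rats. The same rat was the highest CES rat for 7 of the 10 members. Its level of *Tac1* was 2.04 below that of the lowest COS rat.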

How the results depend on the processing

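Of 240 differences of single members over 24 alternatives, 209 kept their direction and their side of the threshold, 21 lost the call, 5 gained one (*Cck*) and 5 changed sign (*Nts*). *Nts* was 0.10 after loess, 0.10 after quantile normalization, 0.17 with scaling by the spots that were valid in every rat, 0.22 with spots well above background and 0.15 in the deposited table. Under these 5 settings 1 member was called higher, and the median difference of all genes was 0.0385, 0.0828, 0.15, 0.16 and 0.12. The members called lower were 5 with normexp and 0 by the methods' t-test, against 8 at an unadjusted p under 0.05. In place of 1238 genes higher and 6038 lower, 3323 and 2225 were called after loess, 3183 and 2142 after quantile normalization, 3348 and 1718 with scaling by the spots that were valid in every rat, 2213 and 869 with spots well above background, 3275 and 1927 in the deposited table, 125 and 461 with normexp, 404 and 2696 without a filter, and 0 and 0 by the t-test (772 and 5331 unadjusted). A foreground of at least 3 times background gave 2828 lower. The cause was not tested.

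Leaving out each rat in turn gave 257 to 1855 genes higher, 914 to 7012 lower, 3 to 8 members lower, 0 to 0 members higher, and a median of −0.34 to −0.20. The lowest counts came without COS replicate 3, where *Tac1*, *Gal* and *Crh* were called. A count of all genes moved by over 1.5 times also without COS replicates 1, 2 or 4 or CES replicate 1, each with 8 members lower. The shares of all genes called lower were then 17%, 18.7%, 23.5% and 11.5%. With the replicate number as a block, which carries the dye, 8 members were called lower and 0 higher, beside 31.1% and 5.82% of all genes. No member's call changed with that block. Probes that are dim, such as the second of *Penk*, limit what could be tested, and so do 4 rats a group on 1 slide with each array holding 1 group.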
